A study of Mus musculus with 6 samples.

Results

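Genes of the intestinal stem cell and of Wnt negative feedback were examined in bulk RNA-seq data of Paneth cells sorted from mouse intestine. They are 10 of the 55414 genes in the count table and were chosen by name. The stem cell genes are Lgr5, Olfm4, Ascl2, Smoc2, Slc12a2 and Lrig1 (6 genes), and the Wnt feedback genes are Axin2, Rnf43, Znrf3 and Notum (4 genes). All 10 were present in the table and 8 passed the filter on low counts, the exceptions being Ascl2 and Notum. Cells were obtained by FACS from the small intestine of WT mice, which the study's methods give as C57BL/6J. Standard chow (3 libraries) or zinc depleted chow (3 libraries) was fed for 7 weeks. Every mouse, standard diet included, had received TNF 3 hours before sampling, so no library shows these genes without TNF. The labels give 3 replicates per group, fewer than the series' own design text states.

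Lgr5-positive stem cells lie between the Paneth cells at the crypt base and depend on Wnt signals, for which Paneth cells are a source. Wnt binding to Frizzled and LRP receptors stabilizes beta-catenin, which acts with TCF/LEF factors on target genes. Some targets act back on the pathway: Axin2 is a scaffold of the beta-catenin destruction complex, Rnf43 and Znrf3 are ubiquitin ligases that remove Frizzled receptors, and Notum is a secreted enzyme that inactivates Wnt proteins. The stem cell genes have diverse roles. Lgr5 is a receptor for R-spondins, which counter Rnf43 and Znrf3, Ascl2 is a transcription factor, Olfm4 and Smoc2 are secreted proteins, Slc12a2 is a sodium, potassium and chloride cotransporter, and Lrig1 is a membrane protein that restrains ErbB receptors.

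Promoter sequences are shown for Olfm4, which supplied most of the stem cell counts, and for Axin2, which had the most negative fold change between the diets of the 8 genes that passed the filter. They are the 250 bases before the gene start in RefSeq (build GRCm38.p6), 5′ to 3′ on the plus strand, at chr14:80000052-80000301 for Olfm4 and chr11:108920099-108920348 for Axin2. Capitals mark TATAA within the last 50 bases, a word chosen after the sequences were seen.
Olfm4: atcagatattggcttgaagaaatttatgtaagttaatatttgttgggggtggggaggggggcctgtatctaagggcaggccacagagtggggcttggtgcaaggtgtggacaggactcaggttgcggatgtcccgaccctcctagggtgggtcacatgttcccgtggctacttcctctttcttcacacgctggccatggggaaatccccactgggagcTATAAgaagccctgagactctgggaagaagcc
Axin2: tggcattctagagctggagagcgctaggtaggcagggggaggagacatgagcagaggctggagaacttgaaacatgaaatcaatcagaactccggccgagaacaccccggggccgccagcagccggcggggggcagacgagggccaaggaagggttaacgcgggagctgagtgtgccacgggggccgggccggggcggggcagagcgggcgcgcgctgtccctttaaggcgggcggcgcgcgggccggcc
TATAA began 32 bases before the start of Olfm4 and was not found there in the other members of the promoter table, against 4.92% of all 32851 windows. The table held 5 of the 10 genes, Olfm4, Ascl2, Lrig1, Axin2 and Rnf43, with 6 windows, since Rnf43 had a pair of starts. The TCF/LEF word CTTTG, followed by 2 bases that are each A or T, on either strand, was found in 0 of these 6 windows, each of which also covered 50 bases after the start, and in 16.9% of all windows. The 250 upstream bases were rich in G and C for Lrig1, Axin2 and Ascl2 (71.6%, 69.2% and 67.6%), against 54.0% for Olfm4 and a median of 52.4% over all windows. For Rnf43 the GC content was 44.4% and 45.2%. CpG dinucleotides numbered 26, 24 and 19 in Lrig1, Axin2 and Ascl2 and 4 in Olfm4, with a median of 6.

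The libraries held between 6139397 and 12772373 counts. The cell type label was checked against 10 Paneth cell markers, led by Defa24 and Lyz1. Their summed level was 531800, 556200 and 644900 CPM (counts per 1000000 counts of a library) in standard diet replicates 1, 2 and 3. In zinc depleted replicates 1, 2 and 3 it was 580100, 677800 and 683500 CPM. The libraries differed in composition. TMM is the scaling of edgeR that sets the bulk of genes equal between libraries. TMM factors ranged from 0.459 in zinc depleted replicate 3 to 1.73 in standard diet replicate 1. They ordered the libraries in reverse of the Paneth cell marker sum. Levels are therefore given as CPM of total counts and as CPM of the TMM-scaled total. With total counts the median log2 fold change of all tested genes was -0.67, and with TMM it was 0.00. For the 10 Paneth cell markers these medians were 0.26 and 1.19. Replicate libraries were compared to find any deposited more than once, and no pair was that close (chi-square per degree of freedom 15.3 to 168). The labels do not say that the replicates are separate animals, whereas the study's methods speak of individual mice. In the first case the p-values measure only the spread between these samples.

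The stem cell signal was mostly Olfm4. Together, the 10 genes held 0.400%, 0.160% and 0.127% of the counts in standard diet replicates 1, 2 and 3 and 0.0776%, 0.0535% and 0.0571% in zinc depleted replicates 1, 2 and 3. Olfm4 took 84.2%, 77.8% and 87.9% of this sum under standard diet and 63.4%, 78.2% and 89.5% under zinc depletion. It was thus the leading gene in every library. The widest Wilson 95% interval, in zinc depleted replicate 2, ran from 76.9% to 79.5%, and zinc depleted replicate 1 stood apart from the rest. In that library Slc12a2 supplied 20.9% of the sum, against 4.97% to 9.86% in the others, while the 8.51% of Smoc2 lay within its range elsewhere, 3.67% to 9.21%. The mean Olfm4 share was 83.3% ± 5.11 (SD, n = 3) under standard diet and 77.0% ± 13.1 (SD, n = 3) under zinc depletion. This difference was larger than the SD under standard diet and smaller than the SD under zinc depletion. With counts divided by the length of the canonical transcript, the Olfm4 share lay between 76.0% and 93.1%.

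Without Olfm4, Slc12a2 and Smoc2 made up most of the remainder. Slc12a2 held 44.4% to 57.1% of the counts of the other 9 genes and Smoc2 held 23.2% to 42.3%. If reads are spread over whole transcripts, the 8025 bases of Slc12a2 give more counts per molecule than the 2841 bases of Smoc2. Values per kilobase rest on this condition. Per kilobase, Smoc2 came first in all 6 libraries, with 37.9% to 63.1%, and Slc12a2 second, with 23.5% to 36.6%. Lgr5, the gene by which these stem cells are usually named, held 5.37%, 4.54% and 2.09% of the 9-gene counts under standard diet and 2.26%, 3.00% and 0.391% under zinc depletion. The Lgr5 share was thus highest in standard diet replicates 1 and 2 and lowest in zinc depleted replicate 3, and the diets overlapped.

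**Figure D1:**
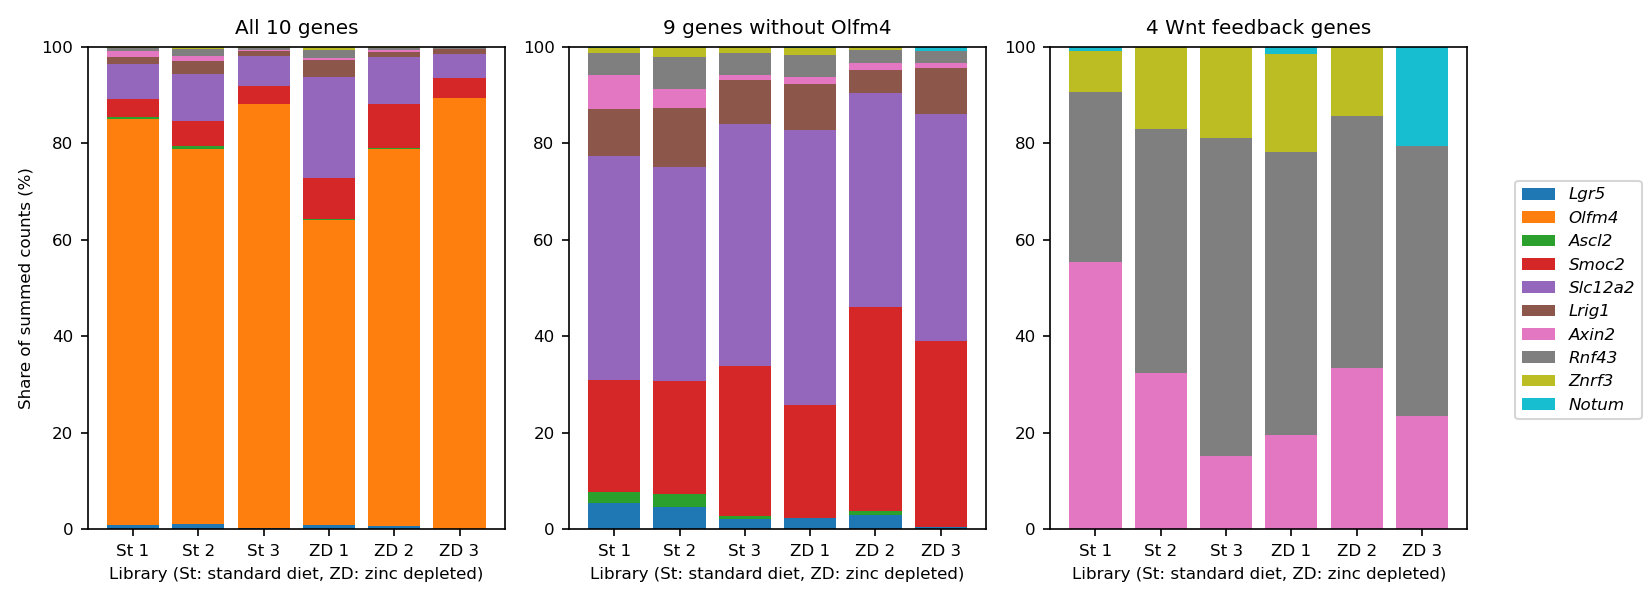
Stacked bars give the share of each gene in summed counts (percent, y axis) for each library (x axis; St, standard diet; ZD, zinc depleted), for all 10 genes, for 9 genes without Olfm4 and for the 4 Wnt feedback genes. Olfm4 takes 63.4% to 89.5% of the first sum, Slc12a2 leads the second, and Axin2 leads the third only in standard diet replicate 1, at 55.3%.

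Levels were compared between genes per kilobase of transcript. Mean levels over the 6 libraries, as TMM-scaled CPM per kilobase, were 365 for Olfm4, 21.5 for Smoc2, 12.8 for Slc12a2 and 3.91 for Lrig1. Rnf43 followed at 2.31, Ascl2 at 1.87, Axin2 at 1.68 and Lgr5 at 1.57, with Znrf3 at 0.404 and Notum at 0.107 last. The order from Rnf43 to Lgr5 was not fixed, since the ranges of these genes over the libraries (0.800 to 4.09, 0 to 5.43, 0.308 to 5.84 and 0.109 to 4.16) covered each other. Olfm4 lay above every other gene in each library, from 120 to 696. Smoc2 lay above Slc12a2 in each library too, whereas the ranges of both genes over the libraries overlapped.

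Olfm4 (ENSMUSG00000022026) lies on chromosome 14 from 80221521 to 80260579 of GRCm39, on the plus strand. It had 3372, 1248 and 1120 CPM of total counts under standard diet and 492, 418 and 511 CPM under zinc depletion. On this scale every zinc depleted library lay below every standard diet library, which held for 10.3% of the 9749 tested genes. Of the 8 tested stem cell and Wnt feedback genes it was 1, Olfm4 itself. With TMM its levels were 1950, 828 and 1249 CPM under standard diet and 337, 655 and 1112 CPM under zinc depletion. The diets then overlapped, because zinc depleted replicate 3 exceeded standard diet replicate 2. TMM left none of the 8 genes without overlap, against 6.55% of all tested genes. The mean level with TMM was 1342 ± 567 CPM (SD, n = 3) and 701 ± 389 CPM (SD, n = 3), respectively.

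Lgr5 (ENSMUSG00000020140, chromosome 10, 115286216 to 115423685, minus strand) had 249, 99 and 32 counts under standard diet and 64, 26 and 3 counts under zinc depletion. In total-count CPM these were 33.9, 16.1 and 3.21 against 6.41, 3.50 and 0.235, and in TMM-scaled CPM 19.6, 10.7 and 3.57 against 4.39, 5.47 and 0.512. Standard diet replicate 3 lay below the first and second zinc depleted libraries on both scales, so the diets overlapped. The 3 counts of zinc depleted replicate 3 have an exact Poisson 95% interval of 0.619 to 8.77 counts, which, as for all intervals here, covers counting error only. Ascl2 (ENSMUSG00000009248, chromosome 7, 142520564 to 142523006, minus strand) had 111, 60 and 10 counts under standard diet and 4, 7 and 0 counts under zinc depletion. For a count of 0 a fixed floor of 3 counts was used, or 0.235 CPM in zinc depleted replicate 3, while the Poisson interval reaches 3.69 counts. Total-count CPM of Ascl2 were 15.1, 9.77 and 1.00 against 0.400, 0.942 and 0. These values did not overlap by a narrow margin, and with TMM they did, at 1.12 CPM in standard diet replicate 3 and 1.47 CPM in zinc depleted replicate 2. Lgr5 and Ascl2 thus shared the high levels in standard diet replicates 1 and 2.

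Smoc2 (ENSMUSG00000023886, chromosome 17, 14499735 to 14625074, plus strand) was the most even of the genes. With TMM it had 84.9, 55.0 and 53.3 CPM under standard diet and 45.3, 77.1 and 50.5 CPM under zinc depletion, a mean of 64.4 ± 17.8 (SD, n = 3) and 57.6 ± 17.1 (SD, n = 3). Standard diet replicate 1 was highest and zinc depleted replicate 2 next. Slc12a2 (ENSMUSG00000024597, chromosome 18, 58011164 to 58080812, plus strand) had 170, 105 and 86.1 CPM against 111, 81.1 and 61.7 CPM with TMM. Lrig1 (ENSMUSG00000030029, chromosome 6, 94581510 to 94677242, minus strand) had 35.5, 28.8 and 15.4 CPM against 18.7, 8.42 and 12.4 CPM. In both genes zinc depleted replicate 1 lay above standard diet replicate 3, so the diets overlapped. Exons of Lrig1 share 1475 bases with Slc25a26 on the opposite strand, which had 90 counts in all, against 1240 for Lrig1. Whether the counting used strand is not given in the sources used here.

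**Figure D2:**
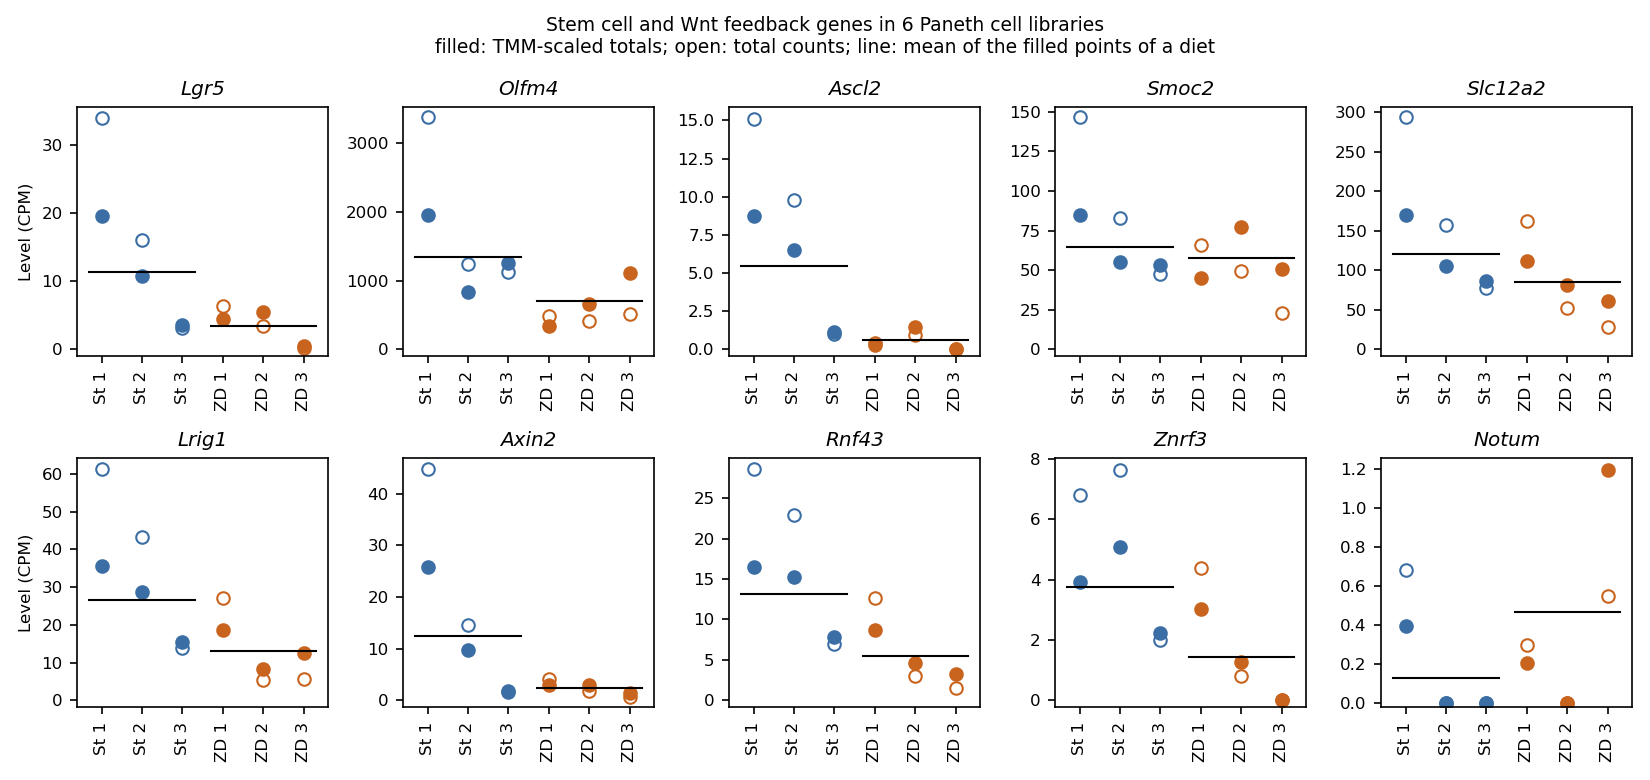
Points give the level of each gene (CPM, y axis) in each library (x axis; St, standard diet; ZD, zinc depleted), filled with TMM-scaled totals and open with total counts, and lines give the mean of the filled points of a diet (n = 3). Standard diet replicate 1 is highest in all panels but those of Znrf3 and Notum with TMM, and the filled points of the diets overlap in every panel.

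Among the Wnt feedback genes, Axin2 had the widest range of counts. Axin2 (ENSMUSG00000000142, chromosome 11, 108811169 to 108841609, plus strand) had 328, 90 and 16 counts under standard diet and 42, 14 and 8 under zinc depletion. In TMM-scaled CPM these were 25.9, 9.73 and 1.79 against 2.88, 2.95 and 1.36, and in total-count CPM 44.7, 14.7 and 1.60 against 4.20, 1.88 and 0.626. Standard diet replicate 1 was far above all others, and standard diet replicate 3 lay within the range of the zinc depleted libraries. Rnf43 (ENSMUSG00000034177, chromosome 11, 87553548 to 87626377, plus strand) had 16.6, 15.2 and 7.82 CPM under standard diet and 8.72, 4.63 and 3.24 CPM under zinc depletion after TMM scaling. Here standard diet replicates 1 and 2 were alike, and only zinc depleted replicate 1 exceeded standard diet replicate 3. Znrf3 (ENSMUSG00000041961, chromosome 11, 5226324 to 5394939, minus strand) had 50, 47 and 20 counts against 44, 6 and 0 counts, or 3.94, 5.08 and 2.23 against 3.02, 1.26 and 0 TMM-scaled CPM. For its count of 0 in zinc depleted replicate 3 the fixed floor of 3 counts is 0.512 CPM on that scale. Notum (ENSMUSG00000042988, chromosome 11, 120541446 to 120552019, minus strand) was close to the detection limit, with 5, 0 and 0 counts against 3, 0 and 7, and shares 2037 exon bases with the antisense gene Notumos, which had 0 counts.

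Different genes led the Wnt feedback sum in different libraries. Axin2 made up 55.3% (Wilson 95% interval 51.3% to 59.3%) of its counts in standard diet replicate 1 and 32.4%, 15.1%, 19.4%, 33.3% and 23.5% in standard diet replicates 2 and 3 and zinc depleted replicates 1, 2 and 3. Rnf43 made up 35.4% (31.7% to 39.3%) in standard diet replicate 1 and 50.7% to 66.0% in the others. Axin2 was therefore the leading gene in the library with the highest Wnt feedback sum and Rnf43 in the other 5, and this order was also found per kilobase. The intervals are wide in zinc depleted replicates 2 and 3, where the sum held 42 and 34 counts and the Axin2 share could lie between 21.0% and 48.5% and between 12.4% and 40.0%. Notum supplied 20.6% of the sum in zinc depleted replicate 3, which is 7 counts.

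With Olfm4 included, the stem cell sum ranked the libraries differently from the Wnt feedback sum. Summed stem cell genes had 2269, 1034 and 1408 CPM under standard diet and 517, 828 and 1237 CPM under zinc depletion with TMM, a pattern set by Olfm4. Without Olfm4 the sum was 319, 206 and 159 CPM against 180.0, 173 and 125 CPM. The Wnt feedback sum was 46.7, 30.1 and 11.8 CPM against 14.8, 8.85 and 5.80 CPM. Zinc depleted replicate 3 thus had the lowest Wnt feedback sum together with the third highest Olfm4 level of the libraries. Without Olfm4 both sums gave the same order of libraries apart from standard diet replicate 3 and zinc depleted replicate 2, which changed places. The ratio of stem cell to Wnt feedback counts, which does not depend on scaling, was 48.5, 34.4 and 119 under standard diet and 34.9, 93.6 and 213 under zinc depletion. Its log2 ratio of group means was 0.76, and -0.07 without zinc depleted replicate 3, so the direction rested on that library. Without Olfm4 the ratio was 6.82, 6.85 and 13.5 against 12.1, 19.6 and 21.6, still with overlap because of standard diet replicate 3. With total counts the stem cell sum (3922, 1558 and 1263 against 754, 529 and 568 CPM) did not overlap between the diets, whereas the Wnt feedback sum (80.8, 45.3 and 10.6 against 21.6, 5.65 and 2.66 CPM) did. On this scale the Wnt feedback sum ordered the libraries in reverse of the Paneth cell marker sum. A link between these sums was not tested. In bulk samples such as these, fewer cells of a type and less RNA per cell cannot be told apart.

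To compare the diets, the genes were read from an edgeR fit over all 9749 genes that passed the filter. None of the 8 tested genes had an adjusted p under 0.05, nor did any gene of the table (0% called; 645 genes had an unadjusted p under 0.05 and DESeq2 called 10). The 8 log2 fold changes (zinc depleted over standard diet) were all below 0, against 50.0% of tested genes, with a median of -1.12 against 0.00. An unadjusted p under 0.05 with a lower level was found for 4 of the 8 genes, against 4.03% of tested genes. These were Axin2 at -2.37 (SE 0.77), Lgr5 at -1.71 (SE 0.74), Rnf43 at -1.23 (SE 0.47) and Lrig1 at -1.0 (SE 0.44), each with an edgeR adjusted p of 0.681. The 8 genes are not independent of each other, since 7 of them were highest in standard diet replicate 1 with TMM, against 19.2% of tested genes.

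The other tested genes lay closer to 0 relative to their error. Znrf3 was at -1.27 (SE 0.84, edgeR adjusted p 0.699), Olfm4 at -0.94 (SE 0.56, edgeR adjusted p 0.681), Slc12a2 at -0.51 (SE 0.42, edgeR adjusted p 0.737) and Smoc2 at -0.16 (SE 0.39, edgeR adjusted p 0.906). Olfm4 and Lrig1 differed by far less than their errors, and their order depended on the scaling and on single libraries. With total counts the 8 genes were again all below 0, as were 86.9% of tested genes, with a median of -1.71 against -0.67. Olfm4 moved most with the scaling, to -2.02 (SE 0.46, edgeR adjusted p 0.683), and Smoc2 to -1.01 (SE 0.58). On that scale 6 of the 8 genes were lowest in zinc depleted replicate 3, against 64.3% of tested genes.

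**Figure D3:**
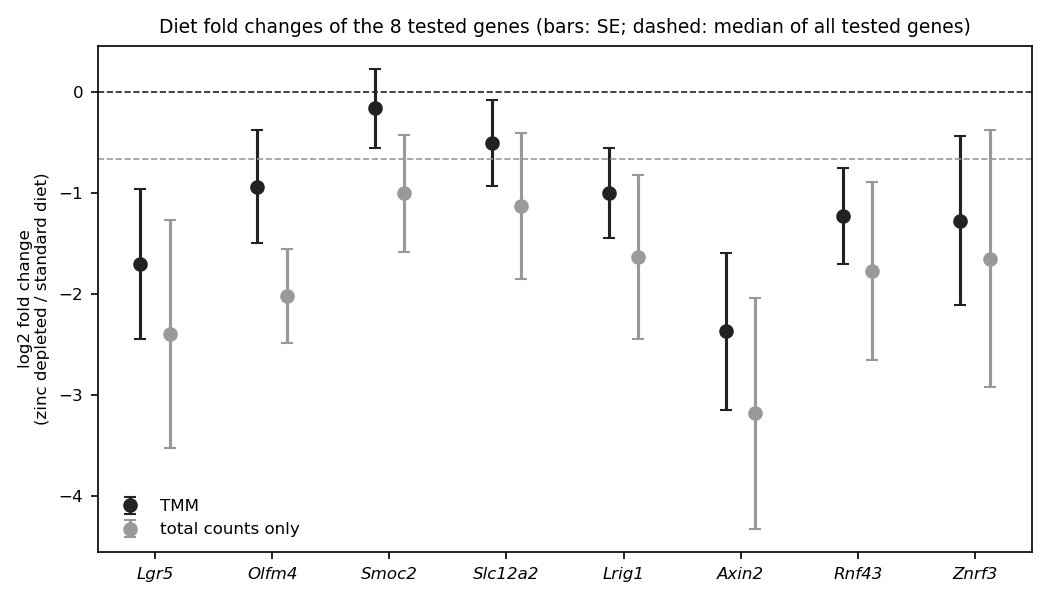
Points give the log2 fold change of zinc depleted over standard diet (y axis) of the 8 tested genes (x axis), with TMM in black and with total counts in grey, bars give the SE and dashed lines the median of all tested genes, 0.00 and -0.67. With TMM the values run from -2.37 for Axin2 to -0.16 for Smoc2, and no gene passed the threshold of an adjusted p under 0.05.

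Single libraries weighed on these values. Of the 8 tested genes, the 4 at an unadjusted p under 0.05 became 0 without standard diet replicate 1. Without standard diet replicate 2 the count was 1. It was 2 without zinc depleted replicate 2 or 3, and 4 without standard diet replicate 3 or zinc depleted replicate 1. With total counts it was 2. The genes were not always the same: Olfm4 was among the 2 with total counts and without zinc depleted replicate 3, and Znrf3 took the place of Lgr5 without zinc depleted replicate 1. Without standard diet replicate 1, Axin2 was at -1.25, Lgr5 at -1.04, Olfm4 at -0.57, Slc12a2 at -0.17 and Smoc2 at 0.09. Leaving out zinc depleted replicate 1 gave -2.62 for Znrf3 and -0.59 for Olfm4, and leaving out zinc depleted replicate 3 gave -0.69 for Znrf3, -1.17 for Lgr5 and -0.28 for Slc12a2. Apart from Smoc2, the tested genes stayed below 0 in all 11 alternatives. Without the filter on low counts, Axin2 (-2.38, edgeR adjusted p 0.00442) and Ascl2 (-3.42, edgeR adjusted p 0.00215) passed the threshold, and no other alternative called any of the 10 genes. Over the alternatives the adjusted p of Axin2 ranged from 0.00442 to 1.00. The filter retained Ascl2, which is not in the counts above, whenever 1 library was left out. Its log2 fold change then lay between -4.80 and -2.85. The unadjusted edgeR p of Ascl2 ran from 0.00149 to 0.0323 in these fits, and the edgeR adjusted p from 0.109 to 1.00.

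The genes also differed in how much they varied over the 6 libraries, whatever the diet. The root mean square deviation of log2 CPM from the mean of a gene (TMM, prior count 2) was 1.54 for Znrf3, 1.48 for Lgr5 and 1.41 for Axin2, at percentiles 98.8, 98.4 and 97.8 of all tested genes. Rnf43 (0.82), Olfm4 (0.79) and Lrig1 (0.69) were in the middle of the 8 genes, at percentiles 80.5, 78.4 and 68.3 of all tested genes. Slc12a2 (0.45) and Smoc2 (0.33) lay below the median of all tested genes, 0.55. Znrf3, Lgr5 and Axin2 were also those of the 8 with the fewest counts (167, 473 and 498), for which counting error is largest. Rnf43 had 589 counts, and the part of counting error in the spread was not tested. As a description, the profiles of Lrig1 and Rnf43 were the closest pair of the 8, with a root mean square difference of 0.35 after centring, and those of Olfm4 and Znrf3 the farthest, at 1.79.

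The genes most like Lgr5 in profile were Klhl24, Erbb2 and Fzd5, at root mean square differences of 0.33, 0.39 and 0.46 over the 6 libraries, among 6486 genes with a mean log2 CPM of at least 2. For Axin2 they were Erbb2, Cpt1a and Acss1, at 0.44, 0.52 and 0.54. Erbb2, a receptor of the epidermal growth factor family, was on both lists, with 21.1, 12.6 and 2.23 CPM under standard diet and 3.84, 3.37 and 0.682 CPM under zinc depletion. Axin2 was 52nd in the list of Lgr5 (0.73), and Olfm4 was at rank 3248, at the median distance of 1.57.

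Other stem cell genes were compared as a list of 20, of which 18 were tested. None passed the threshold in edgeR, 13 of the 18 were below 0 (50.0% of all tested genes) and 8 had an unadjusted p under 0.05 with a lower level (4.03% of all tested genes), with a median log2 fold change of -0.82 (TMM) and -1.59 (total counts). Clca3b, a stem cell marker of the mouse intestine, had 371, 197 and 147 CPM under standard diet and 96.8, 80.2 and 75.2 CPM under zinc depletion with TMM. On this scale every zinc depleted library lay below every standard diet library, as in 6.55% of all tested genes. With total counts the diets overlapped, at 132 CPM in standard diet replicate 3 and 141 CPM in zinc depleted replicate 1. The fold change of Clca3b on the log2 scale was -1.51 with TMM (SE 0.45, edgeR adjusted p 0.681). Hopx, a marker of reserve stem cells, went the other way with TMM, at 0.90 (SE 0.54, edgeR adjusted p 0.682). Its levels were 66.4, 54.7 and 50.3 CPM against 32.1, 114 and 176 CPM, so that the diets overlapped. With total counts it had 115, 82.4 and 45.1 CPM against 46.7, 72.7 and 80.9 CPM. On that scale all 18 tested genes of the list, Hopx included, were below 0, against 86.9% of all tested genes. Outside the naming rule and after its values were seen, Rgmb is named, a coreceptor of bone morphogenetic proteins, which DESeq2 called (adjusted p 0.0469) and edgeR did not (-2.40, SE 0.59, adjusted p 0.681).

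Other Wnt pathway genes, from ligands and receptors to inhibitors and other targets, were followed in 5 lists with 82 genes, 40 of them tested. None passed the threshold, 27 of the 40 were below 0 (37 with total counts), where 50.0% of all tested genes were (86.9% with total counts), and their median was -0.26 (TMM) and -0.75 (total counts), against 0.00 and -0.67 for all tested genes. Of 25 genes for Wnt ligands and their secretion 3 were tested and 12 had 0 counts in every library. Wnt3, the main Wnt ligand of Paneth cells, was nearly even, with 64.2, 67.4 and 67.1 CPM under standard diet and 67.2, 68.4 and 77.9 CPM under zinc depletion with TMM (log2 fold change 0.10, SE 0.35, edgeR adjusted p 0.937). Wls, which carries Wnt proteins to the cell surface, was at 0.47 (SE 0.41, edgeR adjusted p 0.743). With total counts Wnt3 had 111, 101 and 60.2 CPM against 98.0, 43.7 and 35.8 CPM, so that this evenness belonged to the TMM scale.

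Receptors, cytoplasmic components, inhibitors and other targets were compared in the same way, with TMM and beside the same 50.0%. Of 16 receptors 11 were tested and 7 were below 0, with a median of -0.44. Lgr4, the R-spondin receptor related to Lgr5, had 73.6, 54.2 and 27.0 CPM against 34.5, 22.3 and 17.9 CPM (-1.05, SE 0.46, edgeR adjusted p 0.681), and the coreceptor Lrp5 was at -0.41 (SE 0.49). Of 18 core genes 14 were tested, 9 were below 0 and the median was -0.07. Ctnnb1, which encodes beta-catenin, was at -0.03 (SE 0.37) and the kinase gene Csnk1a1 at 0.19 (SE 0.35). Of 18 inhibitors 7 were tested and 5 were below 0, with a median of -0.18, led in level by the corepressors Tle1 (-0.10, SE 0.34) and Tle3 (-0.41, SE 0.50). The 5 other Wnt targets were all tested and below 0, with a median of -0.28, among them the ephrin receptors Ephb3 (-0.28, SE 0.44) and Ephb2 (-0.30, SE 0.44).

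**Figure D4:**
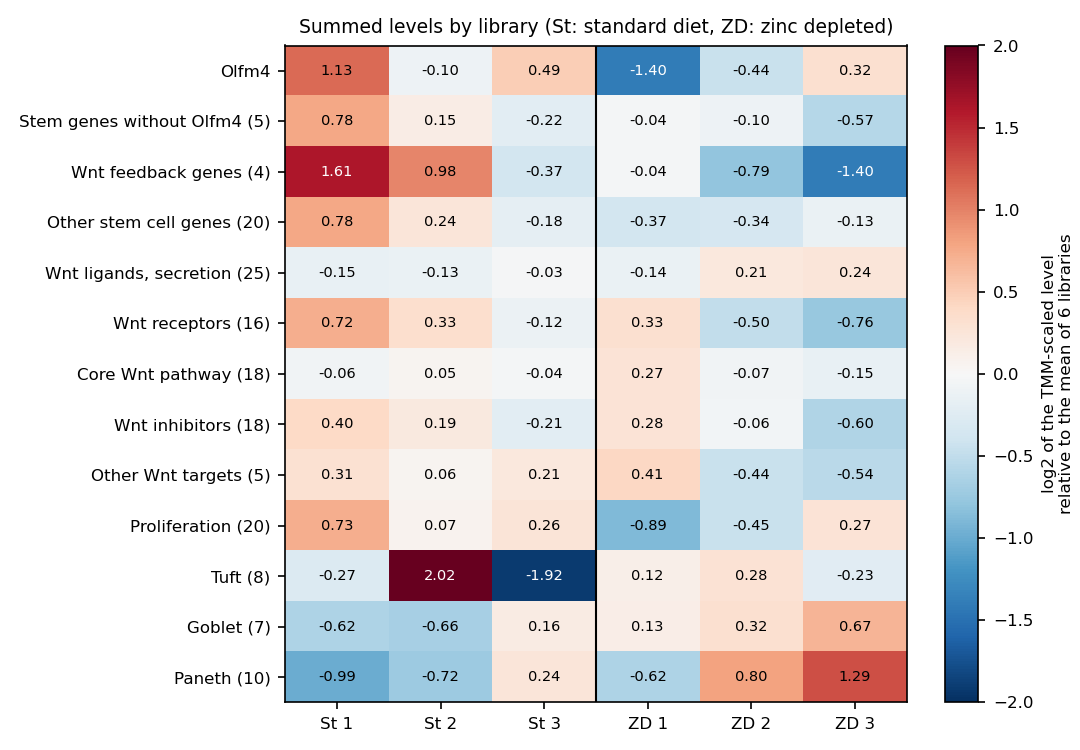
The grid gives the log2 of summed TMM-scaled CPM relative to the mean of the 6 libraries (colour and printed value) for Olfm4, the other 5 stem cell genes, the 4 Wnt feedback genes, other stem and Wnt pathway lists and marker lists (rows; number of genes in brackets), by library (columns; St, standard diet; ZD, zinc depleted). The Wnt feedback sum runs from 1.61 to -1.40, the core Wnt pathway from 0.27 to -0.15 and the Paneth markers from 1.29 in zinc depleted replicate 3 to -0.99 in standard diet replicate 1. With total counts the Paneth marker sum runs from 531800 to 683500 CPM, and with TMM from 307600 to 1488000 CPM. TMM-scaled sums are not shares of a library and can exceed 1000000 CPM.

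Markers of other cells moved with some of the libraries. Summed proliferation genes (20, led by Pcna and Mcm6) had 569, 314 and 214 CPM of total counts under standard diet and 156, 92.7 and 110 CPM under zinc depletion, without overlap. With TMM 17 of the 19 tested genes were below 0, 8 of them with an unadjusted p under 0.05 (4.03% of all tested genes), and the median was -1.05, near that of the stem cell and Wnt feedback genes (-1.12). The TMM sums were 329, 209 and 238 against 107, 145 and 239 CPM, with overlap, since zinc depleted replicate 3 exceeded standard diet replicates 2 and 3. Standard diet replicate 1, where most stem cell and Wnt feedback genes were highest, was the highest of its diet here too. Tuft cell markers (8, led by Trpm5 and Dclk1) stood out in standard diet replicate 2, at 848 CPM of total counts against 33.1 to 220 elsewhere. Enterocyte markers (11, led by Slc5a1) had 111, 247 and 39.2 CPM of total counts under standard diet against 32.4, 29.3 and 31.1 CPM, without overlap, and 64.1, 164 and 43.7 against 22.2, 45.9 and 67.7 CPM with TMM, with overlap. Of 4 tested, 3 were below 0 and 2 had an unadjusted p under 0.05 with a lower level (TMM). Goblet cell markers (7, led by Spink4 and Muc2) ranged from 7639 to 9010 CPM of total counts under standard diet and from 5866 to 12750 CPM under zinc depletion. Of these, Muc2 stood out in zinc depleted replicate 1, at 4532 CPM of total counts against 130 to 1445 elsewhere. Enteroendocrine markers (10, led by Sct and Chgb) ranged from 36.1 to 115 CPM of total counts under standard diet and from 25.0 to 35.9 CPM under zinc depletion. With TMM their sums were 43.7, 76.7 and 40.2 against 17.2, 45.9 and 78.1 CPM, with overlap. Immune markers (14, led by Lyz2 and H2-Aa) lay between 38.7 and 109 CPM of total counts. Stromal and endothelial markers (12, led by Acta2 and Vim) lay between 3.60 and 9.94 CPM on the same scale, with Pdgfra, Lum and Cdh5 at 0 counts. The part of these cells in the stem cell and Wnt feedback levels was not tested.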

How the data were processed

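RNA-seq was performed on sorted mouse Paneth cells, 3 libraries per diet, read single-end on the AVITI platform of Element. The authors deposited raw read counts per Ensembl gene. The submitters' processing notes name FastQC, Trimmomatic 0.39, STAR 2.7.10a, DESeq2 and the build mm39. Neither the counting program nor its handling of strand and of multi-mapped reads is stated in those notes or the methods (not given in the sources used here). Symbols, positions and canonical transcript lengths came from GENCODE on GRCm39 and matched 54749 of 55414 identifiers.

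Diets were compared with the two-sided quasi-likelihood test of edgeR 4.0.16 in R 4.3.3 on all 6 libraries, with TMM, the filterByExpr filter and diet as the only term. P-values were adjusted by Benjamini-Hochberg over 9749 genes, with a threshold of 0.05. The SE of a log2 fold change was derived as its size over the root of F. The procedure was tested on simulated data. Alternatives were DESeq2 1.42.0, RLE factors, total counts only, no filter, a replicate block and each library left out. Sums and ratios over genes got no test. Total counts of 6139397 to 12772373 set the floor for a count of 0 (3 counts) at 0.235 to 0.489 CPM.

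The genes, lists and tests were chosen with earlier results of these data known. The text names all 10 genes. From each stem or Wnt pathway list it names the genes that passed the threshold, at most 3, or else the 2 most abundant. For Lgr5 and Axin2 it names the 3 nearest profiles, and from each marker list the 2 most abundant genes. Markers were given as sums, 1 gene of the enterocyte list is not reported here, and that list was summed without it, a choice made after seeing the data. No table column was left unassigned to a library.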

Additional observations from a re-analysis of the deposited data

How the results depend on the processing

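The number of calls depended on the filter, the tool and 1 library. All genes called by edgeR numbered 0, against 76 without the filter (17790 genes tested) and 10 with DESeq2. Leaving out 1 library gave 0 to 28, the 28 being without standard diet replicate 3. Of the 10 stem cell and Wnt feedback genes, 0 were called, against 2 (Axin2 and Ascl2) without the filter. Of the other stem and Wnt pathway genes, 0 were called, against 1 with DESeq2 (Rgmb) and 2 without the filter (Rgmb and Aqp4). These 2 counts stayed at 0 with any library left out.

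The summed stem cell genes had a log2 ratio of group means of -0.87 with TMM and -1.87 with total counts, and -1.22 to -0.50 with 1 library left out. The ratio of stem cell to Wnt feedback genes was 0.76, with a range of -0.066 (without zinc depleted replicate 3, a reversal) to 1.46. Smoc2 reversed to 0.086 without standard diet replicate 1, in a range of -0.39 to 0.086 with 1 library left out, and was -1.01 with total counts. The cause of these shifts was not tested.

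With the replicate number as a block, edgeR called 0 genes, with 962 against 645 at an unadjusted p under 0.05, of which 5 against 4 were stem cell or Wnt feedback genes. Deviations of same-numbered libraries correlated at 0.147, -0.058 and 0.248, and those of differently numbered libraries at -0.278 to 0.25. With 3 libraries per diet these values cannot show whether the numbers pair the samples. Depth limits Ascl2, Znrf3, Notum and, in zinc depleted replicate 3, Lgr5, which had 3 counts there.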
